A study of Mus musculus with 39 samples.

Results

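The genes described here are 10 genes of the BCL2 and p53 axis of apoptosis, chosen by name: Bax, Bak1, Bbc3, Pmaip1, Bid, Perp, Fas, Bcl2, Bcl2l1 and Mcl1. All 10 were found among the 25219 genes of the deposited table, and their levels were read in 39 single cells. The cells came from the small intestinal crypts of mice carrying Lgr5-EGFP-Ires-CreERT2 together with the reporter Rosa-lsl-tdTomato, in which tamoxifen given 24 h before irradiation marks Lgr5-expressing cells and their progeny with tdTomato. They were sorted as tdTomato+ and Sca1- 48 h after 10 Gy total body irradiation (TBI), and dead cells had been gated out by a viability dye. Because the Cre is made from the Lgr5 locus, only descendants of cells that were using this locus at the time of tamoxifen were sampled. The 39 cells formed 1 group without an unirradiated counterpart, and the labels do not tie the cells to animals. A change caused by radiation was therefore not measured, every SD below is a spread over cells rather than over mice, and no test was run.

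Apoptosis through mitochondria is decided by the balance within the BCL2 family. BAX and BAK open the outer mitochondrial membrane, the BH3-only proteins PUMA (Bbc3), NOXA (Pmaip1) and BID push them to do so, and BCL2, BCL-XL (Bcl2l1) and MCL1 hold them back. After DNA damage, p53 raises transcription of Bax, Bbc3, Pmaip1, the death receptor gene Fas and Perp, which encodes a tetraspan membrane protein that is also part of desmosomes. In the intestine, crypt base cells are known to die by p53-dependent apoptosis within hours of irradiation, so cells present 48 h later are those that were left or their progeny. RNA is a partial view of this system, since BAX, BID and MCL1 are controlled strongly after translation.

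Levels are given in FPKM (fragments scaled to transcript length and to the total of the cell), which allows genes of different length to be set side by side. Detection of a gene means a level of at least 1 FPKM in that cell. Shares of cells carry exact Clopper-Pearson 95% intervals, which cover counting error only. The libraries held between 398418 and 3903971 estimated counts on genes (median 3089188) and between 2287 and 5779 detected genes (median 4609). Cells 9 and 79 had the fewest detected genes, with 2287 and 2335. The total by which a cell's FPKM was scaled fell on genes to an unequal degree. Genes held 33.4% of it in cell 9 and 63.5% in cell 79, against up to 95.2% in cell 30. Levels and the 1 FPKM limit are therefore less even between cells than within a cell. The markers fit the label of crypt epithelium, as all 7 were detected in at least 20 cells, including Epcam, Krt8, Krt18 and Cldn7 in 39 of 39 cells, beside 14.5% of all genes. Of 5 stem cell markers, 4 were detected in at least 20 cells and Lgr5 itself in 8 cells, while Ly6a, which encodes Sca1, was detected in 4 cells.

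RNA of other epithelial types was present as well. All 5 Paneth cell markers were detected in at least 1 cell, beside 49.3% of all genes. In at least 20 cells 3 of the 5 were detected, beside 14.5% of all genes: Defa24 in 38 cells, Defa17 in 36 and Lyz1 in 28. The summed level of the 5 ranged from 1.31 to 12123 FPKM, with the highest value in cell 56. The 5 goblet cell markers summed to between 0.916 and 33556 FPKM, highest in cell 63. Tff3 and Agr2 of this list were detected in 32 cells each. The 5 enterocyte markers summed to between 0 and 41005 FPKM, highest in cell 79, where Fabp1 alone made up 40997 FPKM. Alpi, Apoa1, Apoa4 and Sis were highest in other cells. Tuft cell markers were detected in 4 cells, highest in cell 96 with 1556 FPKM, and cell 79 followed with 672 FPKM. Enteroendocrine markers were nearly absent, with 3 of 4 detected in 0 cells and Neurod1 in cell 48 at 1.38 FPKM. Of the 5 immune markers, Ptprc and Cd3e were detected in 0 cells, Lyz2 in cell 63 at 1.58 FPKM and Cd68 in cell 51 at 112 FPKM. The stromal and endothelial markers Col1a1, Col1a2, Pecam1 and Kdr were at 0 in every cell, and Vim was detected in cell 66 at 3.29 FPKM. The part of such RNA in the levels below was not tested, and detection and balance are also given without cells 51, 56, 63, 79 and 96, the highest cells of the immune, Paneth, goblet, enterocyte and tuft lists. Paneth and goblet marker RNA was not confined to these cells.

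Of the 10 genes, 3 were detected in at least 20 cells: the pro-death genes Bax and Perp and the pro-survival gene Mcl1. Among all genes of the table, 14.5% were detected that often. Averaged over the cells, 5 of the 10 lay at 10 FPKM or higher, against 19.5% of all genes. Bid and Bcl2l1 were detected in 14 and 15 cells, Pmaip1 and Fas in 9 and 6, Bcl2 in 4, and Bak1 and Bbc3 in 2 each. Without cells 51, 56, 63, 79 and 96, again 3 of the 10 were detected in at least 20 cells, with Bax in 91.2%, Perp in 88.2% and Mcl1 in 76.5% of the 34 cells, and Bbc3 fell from 5.13% to 2.94%. The plot of levels by cell shows this as nearly continuous bands for Bax, Perp and Mcl1 and isolated bright cells for the other genes.

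**Figure D1:**
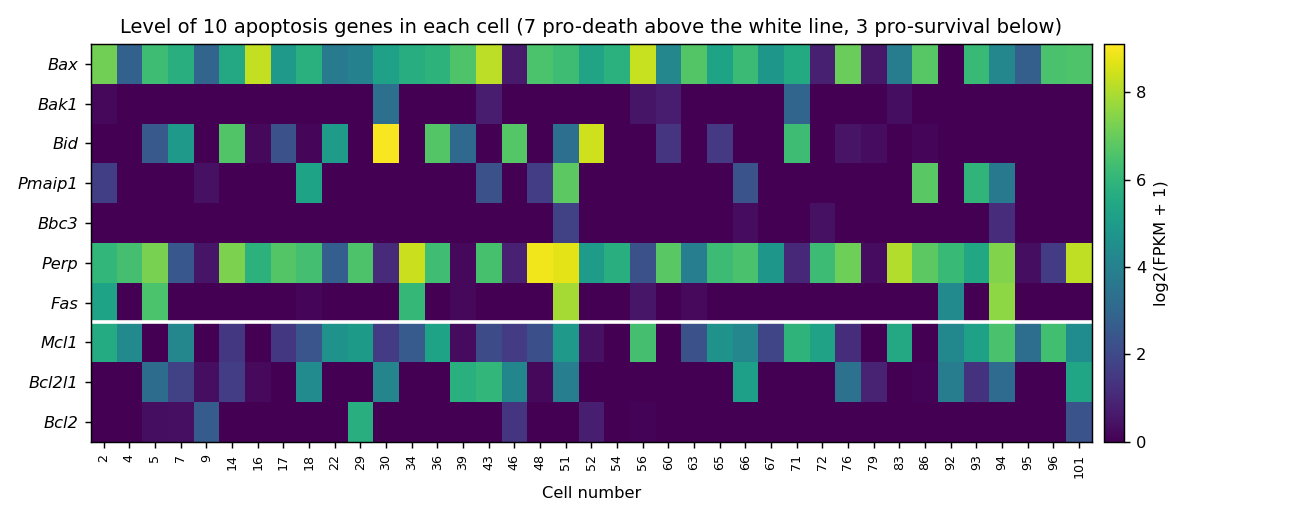
Level of each gene (rows) in each of the 39 cells (columns, by cell number), as log2(FPKM + 1) from dark (0) to bright. Pro-death genes lie above the white line and pro-survival genes below it. Bax (35 cells), Perp (34 cells) and Mcl1 (30 cells) form bands, while Bak1 and Bbc3 are dark in all but 2 cells each.

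For Bax and Mcl1, the BCL2 family genes detected most often on either side, the sequence before the start of transcription is shown to give the context of the genes compared. The sequences are from RefSeq (GRCm38.p6, the build named in the submitters' processing notes), each holds the 250 bases before the annotated start, and no annotated exon overlaps them. Capitals mark a p53 half-site, the 10-letter unit of the p53 binding motif, which reads alike on both strands.

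Bax, chr7:45466899-45467148, minus strand: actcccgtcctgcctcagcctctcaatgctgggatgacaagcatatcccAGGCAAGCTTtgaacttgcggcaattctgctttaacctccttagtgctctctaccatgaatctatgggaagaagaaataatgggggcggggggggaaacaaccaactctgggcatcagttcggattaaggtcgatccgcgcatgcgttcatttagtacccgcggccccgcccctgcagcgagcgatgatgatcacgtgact

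Mcl1, chr3:95658471-95658720, plus strand: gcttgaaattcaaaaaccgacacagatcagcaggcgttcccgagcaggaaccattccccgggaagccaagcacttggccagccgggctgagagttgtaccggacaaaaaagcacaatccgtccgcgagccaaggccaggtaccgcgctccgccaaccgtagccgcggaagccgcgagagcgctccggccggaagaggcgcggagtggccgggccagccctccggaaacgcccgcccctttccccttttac

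The Bax sequence holds 1 half-site, between 201 and 192 bases before the start, and the Mcl1 sequence holds none. CpG dinucleotides number 14 in the Bax sequence and 26 in the Mcl1 sequence. Promoter windows from 250 bases before to 50 after the start were given for 8 of the 10 genes, in 12 windows because some genes have several starts, and Bax was the 1 gene of these 8 with a half-site. Of all 32851 windows, 8.36% held one. A match of letters is not a binding site, and p53 also binds in introns and farther upstream, which was not searched here.

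Bax (Entrez Gene 12028; chromosome 7, 45461695 to 45466898, minus strand) encodes the effector that moves to mitochondria when apoptosis starts. Its level ran from 0 FPKM in cell 92 to 322 FPKM in cell 56, with a median of 50.5 FPKM and a mean of 69.0 ± 79.1 FPKM (SD over 39 cells). It was detected in 35 cells (89.7%, 75.8 to 97.1) and reached 10 FPKM in 32 and 100 FPKM in 7. The highest 3 cells, numbers 56, 16 and 43, lay at 322, 309 and 290 FPKM and together held 34.2% of the summed Bax level, so the mean does not rest on 1 cell. Cell 56 was also the cell with the most Paneth marker RNA, and without it the mean was 62.3 FPKM. Bax was below 1 FPKM in cells 46, 72, 79 and 92, and every cell in which it was detected had at least 5.73 FPKM.

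Bak1 (Entrez Gene 12018; chromosome 17, 27019812 to 27028626, minus strand) encodes BAK, the second effector, which sits on mitochondria already in healthy cells. It was at 0 FPKM in 32 of 39 cells and detected in 2 (5.13%, 0.627 to 17.3), cells 30 and 71, at 9.20 and 6.74 FPKM. In these cells it rested on 49 and 42 estimated counts. Bax was above Bak1 in 38 of 39 cells, and in cell 92 both were at 0. With each cell thinned to 600000 reads, Bax had a read in 94.7% and Bak1 in 7.89% of the 38 cells deep enough. Any FPKM above 0 was present in 97.4% of the 39 cells for Bax and in 17.9% for Bak1.

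The BH3-only genes were each detected in a minority of cells. Bid (Entrez Gene 12122; chromosome 6, 120893119 to 120916820, minus strand), whose protein links death receptors to mitochondria after cleavage by caspase-8, was at 0 in 20 cells and detected in 14 (35.9%, 21.2 to 52.8). Its values were far apart. Cell 30 lay at 517 FPKM, cell 52 at 350 FPKM and cell 46 at 102 FPKM, and these 3 cells held 72.7% of the summed level. The mean of 34.2 ± 100 FPKM fell to 21.4 FPKM without cell 30, and the median over all cells was 0. In cells with Bid detected the median was 29.5 FPKM.

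Pmaip1 (Entrez Gene 58801; chromosome 18, 66458604 to 66465558, plus strand) encodes NOXA, which binds mainly MCL1. It was detected in 9 cells (23.1%, 11.1 to 39.3), with 111 FPKM in cell 51, 108 FPKM in cell 86 and 60.6 FPKM in cell 93, and 29 cells were at 0. The highest 3 cells held 81.9% of its summed level. Bbc3 (Entrez Gene 170770; chromosome 7, 16309583 to 16318334, plus strand) encodes PUMA, which can bind all pro-survival proteins of the family. It was detected in cells 51 and 94 only, at 2.38 and 1.21 FPKM from 18 and 7 estimated counts, and was at 0 in 35 cells. At least 1 BH3-only gene of these 3 was detected in 22 of 39 cells, and in the other 17 cells none was.

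Perp (Entrez Gene 64058; chromosome 10, 18845071 to 18857072, plus strand) had the highest mean of the 10 genes, 96.3 ± 116 FPKM (SD over 39 cells). It was above 0 in all 39 cells and detected in 34 (87.2%, 72.6 to 95.7), from 0.133 FPKM in the lowest cell to 475 FPKM in cell 48, with a median of 73.9 FPKM. Cells 51 and 34 followed at 428 and 328 FPKM. Perp is also a structural gene of epithelial junctions, and which share of its RNA is owed to p53 was not tested. Perp was above Bax in 21 cells and below it in the others, so neither led throughout.

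Fas (Entrez Gene 14102; chromosome 19, 34290659 to 34327770, plus strand) encodes the receptor through which Fas ligand triggers death from outside the cell. It was detected in 6 cells (15.4%, 5.86 to 30.5), and in these it was high, with at least 19.1 FPKM in each and a median of 78.2 FPKM. The highest were cell 51 at 234 FPKM, cell 94 at 186 FPKM and cell 5 at 90.3 FPKM. The other 33 cells were below 1 FPKM and 29 of them at 0, so that no cell lay between 1 and 19.1 FPKM.

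Mcl1 (Entrez Gene 17210; chromosome 3, 95658721 to 95663178, plus strand) was the pro-survival gene detected most often. Its protein is short-lived and is controlled strongly after translation, so the RNA does not give the protein level. Mcl1 was detected in 30 cells (76.9%, 60.7 to 88.9), from 0 FPKM in the lowest cells to 88.7 FPKM in cell 94, with a median of 5.05 FPKM and a mean of 19.4 ± 24.9 FPKM (SD over 39 cells). Cells 56 and 96, at 85.0 and 80.4 FPKM, were close behind cell 94. Mcl1 was at 10 FPKM or more in 18 cells and at 100 FPKM or more in none. The share of cells with Mcl1 depended on the limit more than that of Bax: at 5 FPKM it was 51.3%, against 89.7% for Bax.

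Bcl2l1 (Entrez Gene 12048; chromosome 2, 152758732 to 152831728, minus strand) was detected in 15 cells (38.5%, 23.4 to 55.4), at up to 64.3 FPKM in cell 43 and 53.8 FPKM in cell 39. Its median over all cells was 0.0708 FPKM and its mean 7.89 ± 15.4 FPKM. The gene makes a long survival form and a short form of opposite effect, and the table gives 1 value for both. Bcl2 (Entrez Gene 12043; chromosome 1, 106538178 to 106714290, minus strand), the founding gene of the family, was detected in 4 cells (10.3%, 2.87 to 24.2). Cell 29 alone, at 52.2 FPKM from 1195 estimated counts, held 81.0% of its summed level, and the next cell, number 9, lay at 5.31 FPKM.

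Mcl1 was the only pro-survival gene detected in 16 cells, and 13 cells had Mcl1 together with Bcl2l1. Of the 9 cells with Mcl1 below 1 FPKM, Bcl2l1 was detected in 2 (cells 5 and 39) and Bcl2 in 1 (cell 9). In the remaining 6 cells, numbers 16, 52, 54, 60, 79 and 86, no pro-survival gene of the 3 was detected. Cell 79 had few genes of any kind, but the other 5 had between 4138 and 5502 detected genes, and their summed pro-death level was 106.7 to 420 FPKM. In cells 54 and 60 all 3 pro-survival genes were at exactly 0, while Bax lay at 55.5 and 17.8 FPKM and Perp at 51.2 and 109 FPKM.

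The pro-death and pro-survival sides were then set against each other within each cell. The FPKM of the 7 pro-death genes summed to between 0.956 FPKM (cell 79) and 862 FPKM (cell 51), with a median of 166 FPKM. The 3 pro-survival genes summed to between 0 and 96.7 FPKM (cell 94), with a median of 20.7 FPKM. The pro-death sum was the larger in 38 of 39 cells (97.4%, 86.5 to 99.9), and the log2 ratio of the sums, with 1 FPKM added to each, had a median of 2.48 and ranged from -0.49 to 8.29 (SD over cells 2.46). Cell 95 was the exception, with 5.99 FPKM of pro-death and 8.85 FPKM of pro-survival RNA. Cells 79, 96, 9 and 29 lay closest above equality, at log2 ratios of 0.11, 0.17, 0.37 and 0.38. Without cells 51, 56, 63, 79 and 96 the pro-death sum was the larger in 33 of 34 cells.

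**Figure D2:**
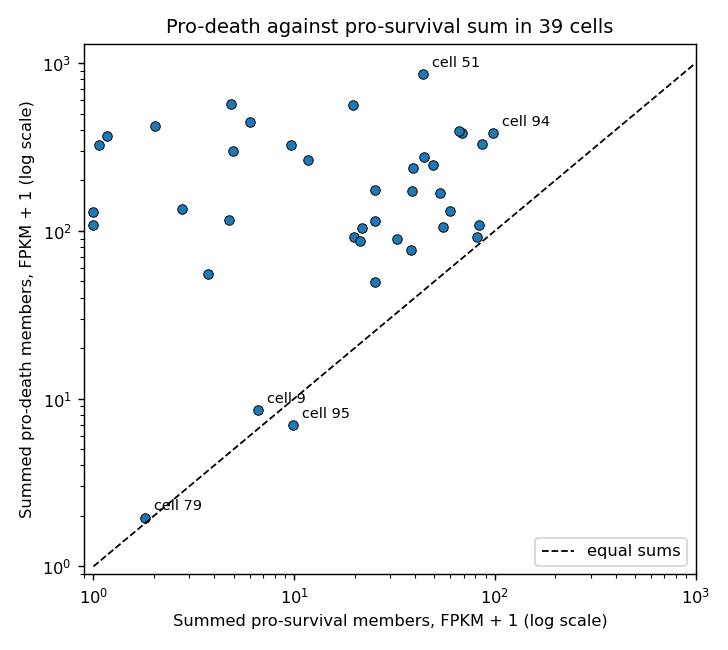
Summed FPKM of the 7 pro-death genes (vertical) against that of the 3 pro-survival genes (horizontal) in each of 39 cells, both plus 1 FPKM on log axes, with the line of equal sums dashed. 38 cells lie above the line. Cell 95 lies below it, and cells 79, 96, 9 and 29 lie just above it.

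This imbalance was carried by Bax and Perp. Perp was the highest pro-death gene in 18 cells, Bax in 14, Bid in 6 and Fas in 1, and Bax and Perp were the only pro-death genes detected in 11 cells. Taken alone, Bax exceeded the sum of Bcl2, Bcl2l1 and Mcl1 in 28 of 39 cells. With Perp left out the pro-death sum was the larger in 32 cells (82.1%, 66.5 to 92.5), and with the 5 BCL2 family genes alone in 31. The order was lost without both Bax and Perp, a setting chosen after seeing the data in which the pro-survival side kept all its genes. The other 5 pro-death genes exceeded the pro-survival sum in 17 cells, fell below it in 21 and equalled it in 1, with a median log2 ratio of -0.25. Bax and Perp held a median of 31.2% and 43.4% of the pro-death sum, so leaving them out had to lower it. The sides also differ in their number of genes. Per gene, the mean FPKM was higher on the pro-death side in 30 of 39 cells, and the mean of log2(FPKM + 1), in which single high genes count less, was higher in 23 of 39 cells (59.0%, 42.1 to 74.4).

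Single pairs showed the same dependence on which genes were paired. Bax was above Mcl1 in 29 cells and above Bcl2l1 in 36. Bid was above Mcl1 in 15 cells, Pmaip1 in 6 and Fas in 5. Bak1 was above Mcl1 in 2 cells and Bbc3 in 0. The pro-death and pro-survival sums did not follow each other across cells (Spearman's rho 0.09, n = 39 cells, which share capture and amplification).

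**Figure D3:**
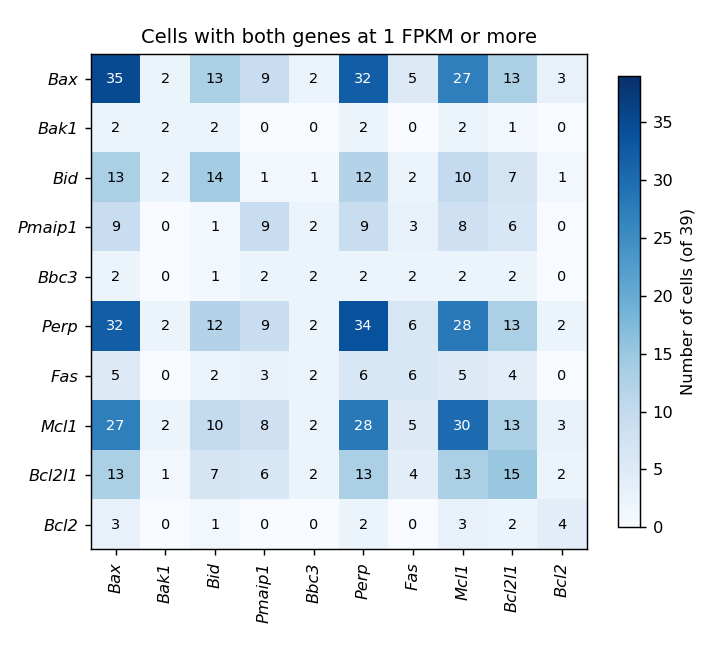
Number of the 39 cells in which both the row gene and the column gene were at 1 FPKM or more, with each gene's own number on the diagonal. All 9 cells with Pmaip1 also had Bax and Perp, while 1 of them had Bid.

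Detected pro-death genes numbered 2 in 13 cells and 3 in 15 cells, and 6 in cell 51 at most. Bax and Perp were found together in 32 cells, and cells 46 and 79 had neither. Of the genes detected less often, all 9 cells with Pmaip1 had Bax and Perp, 8 had Mcl1 and 6 had Bcl2l1. Pmaip1 and Bid shared 1 cell, of 9 with Pmaip1 and 14 with Bid, which was cell 51. Fas and Pmaip1 shared 3 cells, of 6 with Fas and 9 with Pmaip1. Both cells with Bak1 had Bid, and both cells with Bbc3 had Pmaip1 and Fas. Cells with more genes detected overall also had more of the 10 genes (Spearman's rho 0.48, n = 39), and the part of this in joint detection was not tested.

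Cells 51 and 94, singled out after their values were seen as the only cells with Bbc3, also carried Pmaip1, Fas and Perp. Cell 51 had the highest Fas, Pmaip1 and Bbc3 of the 39 cells and the second highest Perp. Cell 94 had the second highest Fas and Bbc3 and 11.8 FPKM of Pmaip1. Of the p53 genes outside the 10, Trp53 itself was highest in cell 51 at 629 FPKM but at place 25 of 39 in cell 94 with 144 FPKM. Mdm2, the ligase that p53 induces against itself, was highest in cell 51 at 607 FPKM and reached 114 FPKM in cell 94, place 3 of 39. Cdkn1a, which encodes the arrest factor p21, was highest in cell 94 at 384 FPKM and second in cell 51 at 326 FPKM. Bax did not share this order, at 77.1 FPKM in cell 51 and 17.6 FPKM in cell 94, the places 12 and 29 of 39. Both cells also had Mcl1, at 29.1 and 88.7 FPKM, and Bcl2l1 was detected in both. Cell 51 was the 1 cell with Cd68 detected and had 5666 detected genes, and the part of either in these levels was not tested.

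The other genes of the pathway, taken from fixed lists, are plotted by level and detection beside the 10, and every mean given for them is over all 39 cells. Trp53, which encodes p53, was detected in 35 cells with a mean of 254 ± 173 FPKM. Of the 19 genes for p53 control and p53 targets, 10 were detected in at least 20 cells and 9 in fewer, beside 14.5% of all genes. Siva1, a p53 target of the death receptor pathway, was detected in 36 cells, with a mean of 168 FPKM over the 39. Cdkn1a was detected in 29 cells and Mdm2 in 20. Cdkn1a was detected in all 6 cells with Fas, 8 of 9 with Pmaip1, 8 of 14 with Bid, 26 of 35 with Bax and 26 of 34 with Perp. Mdm2 was detected in 5, 8, 5, 17 and 18 of these cells, in the same order, and the differences between genes were not tested.

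**Figure D4:**
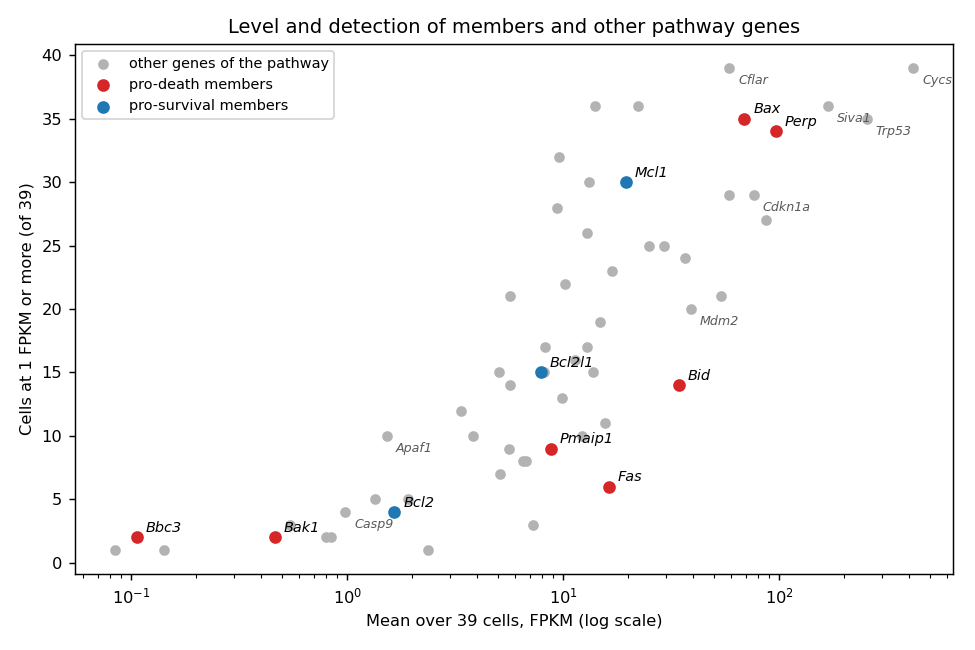
Mean level over 39 cells (horizontal, FPKM, log axis) and number of cells at 1 FPKM or more (vertical) for the 7 pro-death genes (red), the 3 pro-survival genes (blue) and other genes of the pathway (grey, without genes at 0 in all cells or not reported here). Bid and Fas lie at higher means than other genes detected in as few cells, while Bak1 and Bbc3 lie at the lower left.

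Of the 5 other pro-survival genes of the family, 0 were detected in at least 20 cells, beside 14.5% of all genes: Bcl2l2 was detected in 5 cells with a mean of 1.91 FPKM, Bcl2a1d, whose reads can be shared with near-identical copies, in 2, and Bcl2l10 was at 0 in all cells. Of the 6 other pro-death genes, likewise 0 were detected in at least 20 cells. Bad, whose protein is switched off by growth factor signals, was detected in 17 cells (mean 12.9 FPKM) and Bok, a BAX relative, in 9 (mean 5.62 FPKM). Bmf and Hrk were at 0 in all 39 cells, and the exact interval for each reaches 9.03% of cells. This limit is for cells with reads of the gene, not for cells that express it.

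Downstream of mitochondria, 3 of 8 genes were detected in at least 20 cells, beside 14.5% of all genes. Cycs, the gene of cytochrome c, was detected in 39 cells at a mean of 416 ± 166 FPKM, though reads of Cycs can be shared with its processed copies. Casp6 was detected in 29 cells (mean 58.4 FPKM over all 39 cells). Apaf1 and Casp9, which join cytochrome c in the apoptosome, were detected in 10 cells (mean 1.52 FPKM) and 4 cells (mean 0.979 FPKM). The mean of Casp9 rested largely on cell 5, at 32.5 FPKM. In the death receptor pathway, 4 of 8 genes were detected in at least 20 cells, again beside 14.5%. Cflar, the inhibitor of caspase-8, was detected in all 39 cells at a mean of 58.6 ± 64.9 FPKM, and Casp8 in 25 (mean 24.95 FPKM over all 39 cells). Fasl, the gene of Fas ligand, was at 0 in every cell. Among 5 inhibitors of apoptosis, Birc5, which also serves in mitosis, and Birc6 were each detected in 36 cells, with means of 22.3 and 13.98 FPKM. Of the genes that set the stability of MCL1 protein, Usp9x was detected in 22 cells (mean 10.2 FPKM) and Huwe1 in 32 (mean 9.56 FPKM).

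For Bax, Perp and Mcl1, the genes detected widely enough, levels were compared across cells. Between the 3 genes, Spearman's rho was 0.20 for Bax and Perp, -0.02 for Bax and Mcl1 and 0.08 for Perp and Mcl1 (n = 39 cells each). With the stem cell gene Olfm4 the coefficients lay between -0.21 and 0.02. Of 15 coefficients with fixed reference genes, the farthest from 0 over all 39 cells were 0.43 for Mcl1 and the cycling gene Mki67 and -0.42 for Bax and Epcam. Without cells 9 and 79 these were 0.36 and -0.37. Under that setting others lay about as far from 0: -0.36 for Bax and Mki67, 0.35 for Bax and Cdkn1a and -0.35 for Perp and Olfm4. Bax and S100a6 had 0.31, and 0.33 without cells 9 and 79. With Cdkn1a, Bax had 0.28, Perp 0.16 and Mcl1 0.08. With the number of genes detected in a cell, the coefficient was 0.33 for Perp, 0.14 for Mcl1 and 0.08 for Bax. With the estimated counts of a cell it was 0.32 for Perp, 0.18 for Bax and -0.25 for Mcl1, and for Mcl1 it moved to -0.42 without cells 9 and 79 and to 0.09 as Pearson's r of log2 levels. The log2 ratio of pro-death to pro-survival sums had 0.33 with estimated counts and 0.23 with genes detected, and the part of depth in the ratio was not tested. All are descriptions over cells that share depth and detection.

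Among 3666 genes detected in at least 20 cells, those most like Bax across the cells were Hist1h2bc, Lonp1 and a gene listed as BC002163 (2), at Spearman's rho of 0.57, 0.55 and 0.54 (n = 39). For Perp they were Dynll1 (0.62), Eef1e1 (0.62) and Commd3 (0.60), and for Mcl1 they were Rpa3 (0.63), Zwilch (0.56) and G3bp2 (0.55). These are the highest of 3666 values each, and the 10 genes were not among them.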

How the data were processed

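Values of 39 single cells were analysed. Per the labels and methods, each cell was caught in a C1 circuit, its cDNA was amplified (SMARTer Ultra Low RNA) and made into a Nextera XT library, and read pairs were sequenced. The submitters' processing notes name bcl2fastq 1.8.4, TopHat2 2.0.14 and GRCm38. The authors deposited FPKM values, normalized by gene length and by the total of each cell, and estimated counts, which are not normalized and of which 18.4% of those above 0 are not whole. The quantifier is not given in the sources used here. All 78 value columns belonged to the 39 cells, and 0 other columns of values were left out.

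FPKM was used as deposited, with detection at 1 FPKM and a pseudocount of 1 FPKM. Estimated counts were rounded for thinning to 600000 reads (1 cell left out). Without rounding they were used for depth, for another detection limit of 10 estimated counts and for another form of the balance. No molecular identifiers are named, so a count is not a molecule, and a transcript lost before amplification reads 0. Cells are not replicates and the labels give 1 group, so no test was run. The subgroups of the study are given by no label and were not used. Doublets were not called, since capture sites had been inspected by microscope. Named genes were the 10 genes, the 2 highest of each pathway list, genes at 0 throughout, Trp53, Mdm2, Cdkn1a, Apaf1 and Casp9, and the 3 genes nearest to each gene detected in at least 20 cells. Cells 51 and 94 were singled out after their values were seen. The genes, lists and settings were chosen with earlier results of these data known. Tigar was matched by its older name. Some genes of the lists are not reported here. The steps were tested on simulated data. Values were computed with pandas 2.3.3, scipy 1.17.1 and numpy 2.4.6 in Python 3.11.15 and drawn with matplotlib 3.10.9.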

Additional observations from a re-analysis of the deposited data

How the results depend on the processing

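The settings moved the balance between pro-death and pro-survival genes more than they moved detection. The pro-death sum was the larger in 97.4% of cells as reported, in 82.1% without Perp, 79.5% with BCL2 family genes alone, 100% without Mcl1, 59.0% with the mean of log2(FPKM + 1), and 76.9% both with estimated counts in place of FPKM and, chosen after seeing the data, with the mean FPKM per gene. Also chosen after seeing the data were Bax alone (71.8%) and the pro-death side without Bax and Perp (43.6%), where the median log2 ratio of 2.48 reversed to -0.25. Without Mcl1 that median was 6.10, and under the other settings it lay between 0.29 and 2.56, above 0 in each. Estimated counts, unlike FPKM, are not divided by transcript length, which is 869 bases for Bax and 3487 for Mcl1. The cause of these changes was not tested beyond the settings themselves. The number of genes detected in at least 20 cells was 3, or 4 at any value above 0. Per gene, 55 of 60 shares of cells stayed within the interval of the reported share. Mean log2 levels moved by over 1 SD in 12 of 40 cases, all with a pseudocount of 0.1 FPKM or with cells below 1 FPKM left out. Weak correlations changed with the setting, as for Bax and the number of genes detected (0.08, against -0.05 without cells 9 and 79 and 0.27 as Pearson's r). Among genes detected in at least 30 cells, 1 of the 3 genes nearest to Bax was kept. That limit by itself removes Hist1h2bc and Lonp1, detected in 27 and 26 cells. No paired analysis was possible because all cells belong to 1 group. Depth limits genes at few reads: Bbc3 rested on 18 and 7 estimated counts, and no settings can tell an unexpressed gene from one lost before amplification.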
